A study of Ictidomys tridecemlineatus with 15 samples.

Results

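Cells annotated as horizontal cells (HC) were compared with cells annotated as early neurogenic progenitors (Early_NG) within the same embryonic retinas of a cone-rich rodent, the 13-lined ground squirrel (13LGS). Cells were chosen by the deposited cell type annotation alone. The 7 libraries made at embryonic days 18, 21, 24 and 26 (E18, E21, E24 and E26) held 2303 horizontal cells and 1762 neurogenic progenitors. These 4065 cells were drawn from 19630 cells of the embryonic libraries and 53394 cells in all. The libraries were single-cell RNA libraries of whole retinas, collected from timed-pregnant captive dams. There was 1 library of E18 and there were 2 each of E21, E24 and E26. The labels name no treatment, strain, sex or genotype. The letters a and b tell the libraries of a time point apart and do not stand for the replicate numbers of the labels. No source used here says whether they came from separate embryos or litters, so the p-values measure the spread between these libraries. The samples were described as methanol-fixed cells or flash-frozen material, without saying which library was which.

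Horizontal cells are interneurons of the outer retina that receive input from photoreceptors and feed back onto them. They are among the first neurons that the retina makes. Retinal progenitors first divide as primary progenitors and then pass through a short neurogenic state, in which a cell is about to leave the cell cycle and take on a neuronal fate. Neurogenic progenitors of the embryonic retina give rise to horizontal cells, ganglion cells, cones and amacrine cells, so that the comparison sets one early neuron beside the progenitor pool from which early neurons come.

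The unique molecular identifier (UMI) counts of the cells of a type were summed in each library. A level is given as CPM, the UMIs of a gene per 1e6 UMIs of the same sum. Horizontal cell sums held from 118668 UMIs, in the 25 horizontal cells of E18, to 3172199 UMIs in E26a, and the neurogenic progenitor sums held from 1211584 to 4064987 UMIs. The files list 30265 gene names and 34181 gene rows without pairing them, so genes are called here by their row in the matrix, counted from 1, and the annotated types were not checked against named marker genes. The annotation came from clusters of the same cells, and genes that set it are among the rows tested, so a difference between the types is in part what the annotation was made from. Among the 21 pairs of libraries, 2 pairs shared cell barcodes among these cells, 3 barcodes in all.

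Horizontal cells rose from few cells to the larger population over the embryonic period. E18 held 25 horizontal cells and 484 neurogenic progenitors. E21a held 132 and 192 and E21b held 158 of each. By E24 horizontal cells were the more numerous, with 426 against 233 cells in E24a and 275 against 146 cells in E24b. E26a held 818 and 425 cells, and the most uneven library was E26b, with 469 horizontal cells and 124 neurogenic progenitors. As a share of all cells of a library, horizontal cells made up 0.453% at E18, 7.17% and 10.1% at E21, 15.4% and 14.5% at E24 and 21% and 21.8% at E26. Neurogenic progenitors stayed between 5.77% and 10.9% of the cells. The number of horizontal cells per neurogenic progenitor went from 0.0517 at E18 to 3.78 in E26b, and its log2 value followed embryonic day with Spearman's rho 0.97 (exact permutation p = 0.00317, adjusted p = 0.00952, n = 7) and Pearson's r 0.91 (exact permutation p = 0.00159, adjusted p = 0.00476). Without E18 and E21a, 2 of the libraries farthest from the middle day, r was 0.86. The 7 libraries cover 4 time points, and with a mean per time point the exact permutation p was above 0.05, as given further below.

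**Figure D1:**
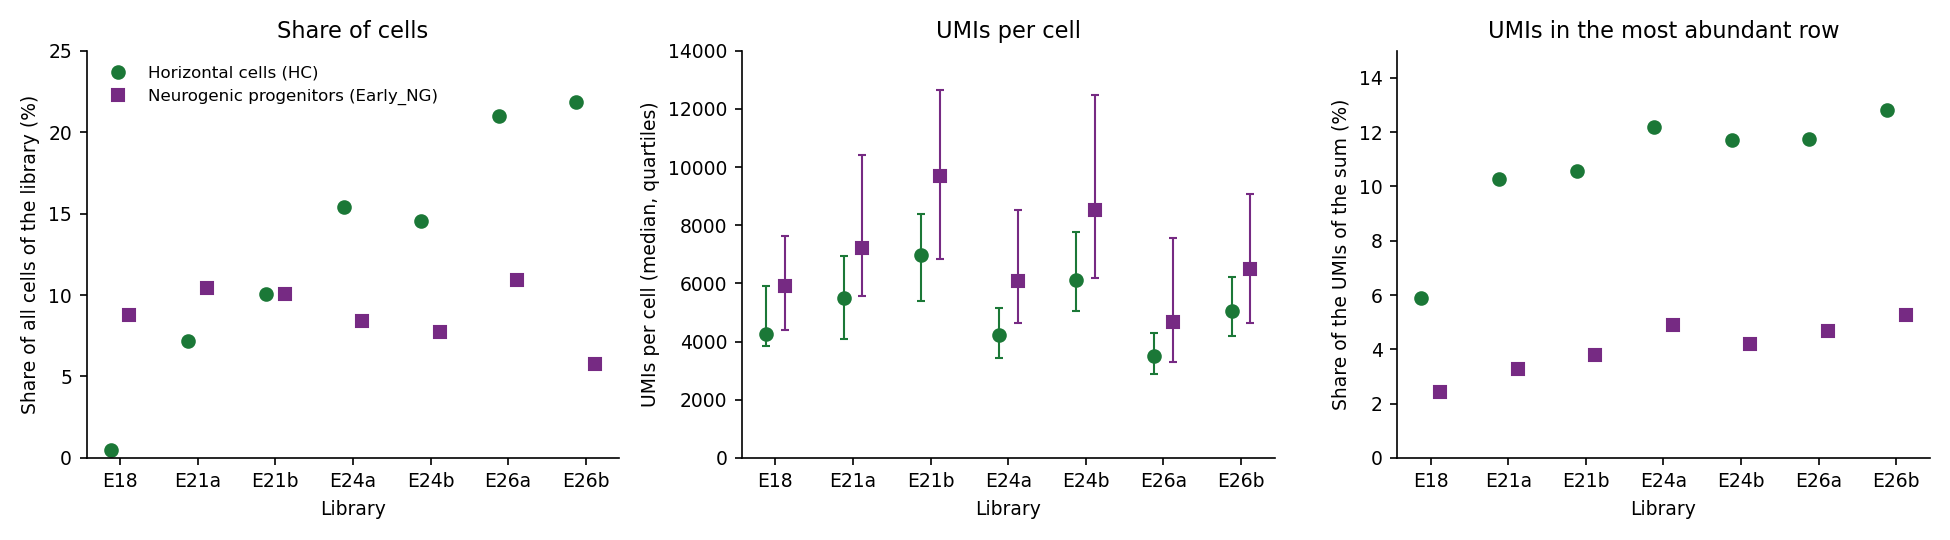
Share of all cells of each library (left, %), UMIs per cell (middle, median with quartiles) and the share of a sum's UMIs in the single most abundant gene row (right, %), for horizontal cells (circles) and neurogenic progenitors (squares) of the 7 libraries. Horizontal cells went from 0.453% to 21.8% of cells, had fewer UMIs than the progenitors of the same library in 7 of 7 libraries, and held more of their UMIs in the most abundant row in each library.

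Horizontal cells held fewer UMIs and fewer detected genes per cell than the progenitors beside them. The median horizontal cell had 5094.5 ± 1207 UMIs (SD over 7 libraries) and the median progenitor 6938 ± 1702. The log2 ratio within a library was -0.44 ± 0.057 (SD, n = 7), lower in 7 of 7 libraries (two-sided exact sign-flip permutation p = 0.015625, the smallest that 7 libraries allow, adjusted p = 0.0208 over 4 measures). Detected genes were 2123 ± 413 in horizontal cells and 2585 ± 475 in progenitors, also lower in 7 of 7 libraries (log2 ratio -0.29 ± 0.046, exact permutation p = 0.015625, adjusted p = 0.0208). Neurogenic progenitors had a longer upper tail. Of the progenitors, 195 of 1762 (11.1%) held over 2 times the median UMIs of their library and type and together 35.1% of all progenitor UMIs. Of the horizontal cells, 91 of 2303 (3.95%) did so, with 9.36% of the UMIs. A single progenitor of E26a held 295040 UMIs, 7.26% of its sum. Whether such cells are doublets was not tested.

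A single gene row stood apart from all others in its abundance, and it was singled out after its values were seen. It took 10.7% ± 2.32 of the UMIs of a horizontal cell sum (SD, n = 7, range 5.89% to 12.8%) and 4.07% ± 1.00 of those of a progenitor sum (2.42% to 5.28%). The ranges did not overlap. Its fitted level was 2.61-fold higher in horizontal cells (log2 1.38 ± 0.050 SE, edgeR quasi-likelihood adjusted p = 6.27e-13). Ganglion cells (6.70% ± 0.98) and photoreceptor precursors (8.57% ± 1.19, n = 6) lay between, and primary progenitors (4.25% ± 1.00) lay beside the neurogenic progenitors. The row rose with embryonic day by 0.15 ± 0.035 per day on the log2 scale in horizontal cells (edgeR adjusted p = 0.0163) and by 0.14 ± 0.038 per day in progenitors (adjusted p = 0.0322), and no change of the difference between the types was detected (slope -0.0032 ± 0.017 per day, adjusted p = 0.986).

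The direction of 2 measures of diversity turned on this row. With all rows, the 50 most abundant rows took 29.7% ± 2.40 of horizontal cell UMIs and 25.5% ± 2.28 of progenitor UMIs, a difference of 4.17 ± 1.54 percentage points that was above 0 in 7 of 7 libraries (exact permutation p = 0.015625, adjusted p = 0.0208). Without the most abundant row the difference turned to -1.15 ± 0.91 points, below 0 in 7 of 7 libraries (exact permutation p = 0.015625). Detected genes did the same once each cell was thinned to 2000 UMIs. With all rows, the median horizontal cell showed 1075 ± 45.0 genes and the median progenitor 1099 ± 42.2, a difference of -23.9 ± 21.1 genes with 6 of 7 libraries below 0 (exact permutation p = 0.046875, adjusted p = 0.046875). Without that row horizontal cells showed 1179 ± 45.0 and progenitors 1131 ± 41.4, a difference of 48.1 ± 14.9 genes that was above 0 in 7 of 7 libraries (exact permutation p = 0.015625). The lower count with all rows missed the threshold as a mean over cells and at 3000 UMIs (exact permutation p = 0.0625 in both), and without any 1 library other than E18 (exact permutation p = 0.0625 or 0.0938).

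Most of the rows tested differed between the types. Of 10530 rows that passed the filter on low counts, 6107 (58%) were called by edgeR's quasi-likelihood test with the library as a block at an adjusted p below 0.05, of which 2970 (28.2%) were higher and 3137 (29.8%) lower in horizontal cells. Most differences were small, and 2212 rows (21%) were called at 2-fold or more, 1039 (9.87%) higher and 1173 (11.1%) lower. Among the higher rows 713 lay between 2-fold and 4-fold, 198 between 4-fold and 8-fold, 69 between 8-fold and 16-fold and 59 above. Among the lower rows these numbers were 707, 245, 144 and 77, so among the rows tested the lower side had the more rows past 8-fold. A row seen in a single type passed the filter only if it was counted in every sum of that type. The horizontal cell sum of E18 came from 25 cells. Without a filter, 2052 rows were called at least 2-fold higher and 2031 lower, and with equal numbers of cells 883 and 859. Few of the rows that passed the filter had a level near 0 in the lower type, and rows that it removed are not counted here. Row 30138, for example, had 250 UMIs in horizontal cells and 4 in progenitors and was not tested. Of the higher rows, 21 had a pooled level under 1 CPM in the progenitors, and of the lower rows 37 had one in horizontal cells.

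**Figure D2:**
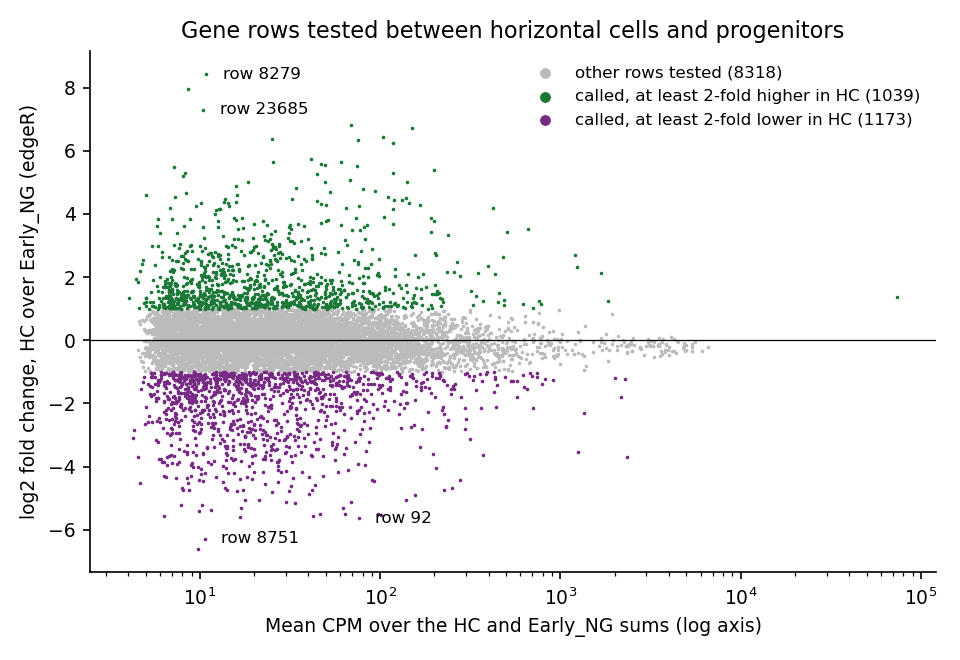
Fitted log2 fold change of horizontal cells over neurogenic progenitors against the mean CPM of the 14 sums (log axis) for the 10530 rows tested. Green points are the 1039 rows called at least 2-fold higher in horizontal cells and purple points the 1173 called at least 2-fold lower, and the green point at the far right is the single most abundant row.

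Most of the larger differences had 1 direction in all libraries. Of the 1039 higher rows, 828 were above the progenitor level of the same library in 7 of 7 libraries, and in 618 (59.5%) the lowest horizontal cell value exceeded the highest progenitor value. Of the 1173 lower rows, 1012 were lower in all 7 libraries and 744 (63.4%) did not overlap. Over all rows tested, 39.2% kept one direction in the 7 libraries and 18.1% did not overlap. Rows were also read in a library that their call had not used. Those called at least 2-fold higher without one library were higher in that library in 95.8% to 99.5% of cases for E21, E24 and E26, and rows called lower were lower in 97.3% to 99.6%, over rows with at least 10 UMIs there. In E18, with its 25 horizontal cells, the shares were 80.0% of 880 rows and 88.8% of 1193 rows. The shares over all rows with enough UMIs lay between 46.9% and 53.1% in the 7 libraries.

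Row 8279 had the largest fold change among rows with a mean of at least 20 CPM in horizontal cells and no overlap between the types. Its level in horizontal cells was 8.43 CPM in E18, 15.1 and 15.7 CPM in E21a and E21b, 22.4 and 26.7 CPM in E24a and E24b, and 37.2 and 25.5 CPM in E26a and E26b. The E18 value came from 1 UMI. None of the 15205566 progenitor UMIs of the 7 libraries fell in it. The 308 horizontal cell UMIs made it at least 135-fold higher, counting 3 UMIs over the progenitor group. The edgeR fit called it higher (adjusted p = 3.02e-08). Each cell thinned to 2000 UMIs, 121 of 2238 horizontal cells (5.41%) held a UMI of it, against 0 of 1731 progenitors, which allows up to 0.173% of cells with a UMI at that depth and sets no limit on cells that express the row. Over libraries the share of horizontal cells ran from 0.633% in E21b to 8.02% in E26a. A UMI of the row was also found in 1 of 5686 thinned ganglion cells and in 2 of 8742 thinned primary progenitors. Without thinning the shares were 9.99% of 2303 horizontal cells and 0 of 1762 progenitors, at median depths of 4470 and 6281.5 UMIs.

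Row 23685 showed the same contrast. Horizontal cells held 8.43 CPM in E18, 21.9 and 12.2 CPM in E21a and E21b, 15.7 and 30.4 CPM in E24a and E24b, and 29.3 and 27.8 CPM in E26a and E26b. The E18 value again came from 1 UMI. Progenitors held 0 CPM in 6 libraries and 0.246 CPM, from 1 UMI, in E26a. Pooled over libraries the level was 373-fold higher (95% exact interval for counting error 66.4 to 14772, edgeR adjusted p = 4.72e-11). A UMI of the row was found in 100 of 2238 thinned horizontal cells (4.47%) and in 0 of 1731 thinned progenitors. It was also nearly absent from ganglion cells (2 of 5686 cells) and primary progenitors (1 of 8742 cells).

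Row 8751 led the rows that were lower in horizontal cells. Progenitors held 22.9 CPM in E18, 29.1 and 25.2 CPM in E21a and E21b, 22.5 and 19.0 CPM in E24a and E24b, and 8.86 and 20.6 CPM in E26a and E26b. Horizontal cells held 0 CPM in 5 libraries, 0.534 CPM in E24b and 0.315 CPM in E26a. In the E18 sum 3 UMIs amount to 25.3 CPM, so the 0 there does not set the types apart. The pooled level was 113-fold lower in horizontal cells (95% exact interval 30.9 to 936, edgeR adjusted p = 5.97e-10). The progenitor level was the lowest in E26a, where it was 10.7 CPM without cells over 2 times the median UMIs. Primary progenitors carried the row too, at 8.39 to 15.1 CPM, and ganglion cells held at most 0.571 CPM.

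Row 92 was the more abundant of the lower rows. Progenitors held 96.5 CPM in E18, 153 and 185 CPM in E21a and E21b, 159 and 136 CPM in E24a and E24b, and 102 and 212 CPM in E26a and E26b. Horizontal cells held 0 to 4.11 CPM, and 3 UMIs amount to 25.3 CPM in the E18 sum. Pooled, the level was 44.9-fold lower in horizontal cells (95% exact interval 32.1 to 64.6, edgeR adjusted p = 2.14e-13). Thinned to 2000 UMIs, 316 of 1731 progenitors (18.3%) and 14 of 2238 horizontal cells (0.626%) held a UMI. Primary progenitors were higher still, with 25.3% of 8742 cells and 164 to 320 CPM, so the row was shared by both progenitor types and low in both neuron types.

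**Figure D3:**
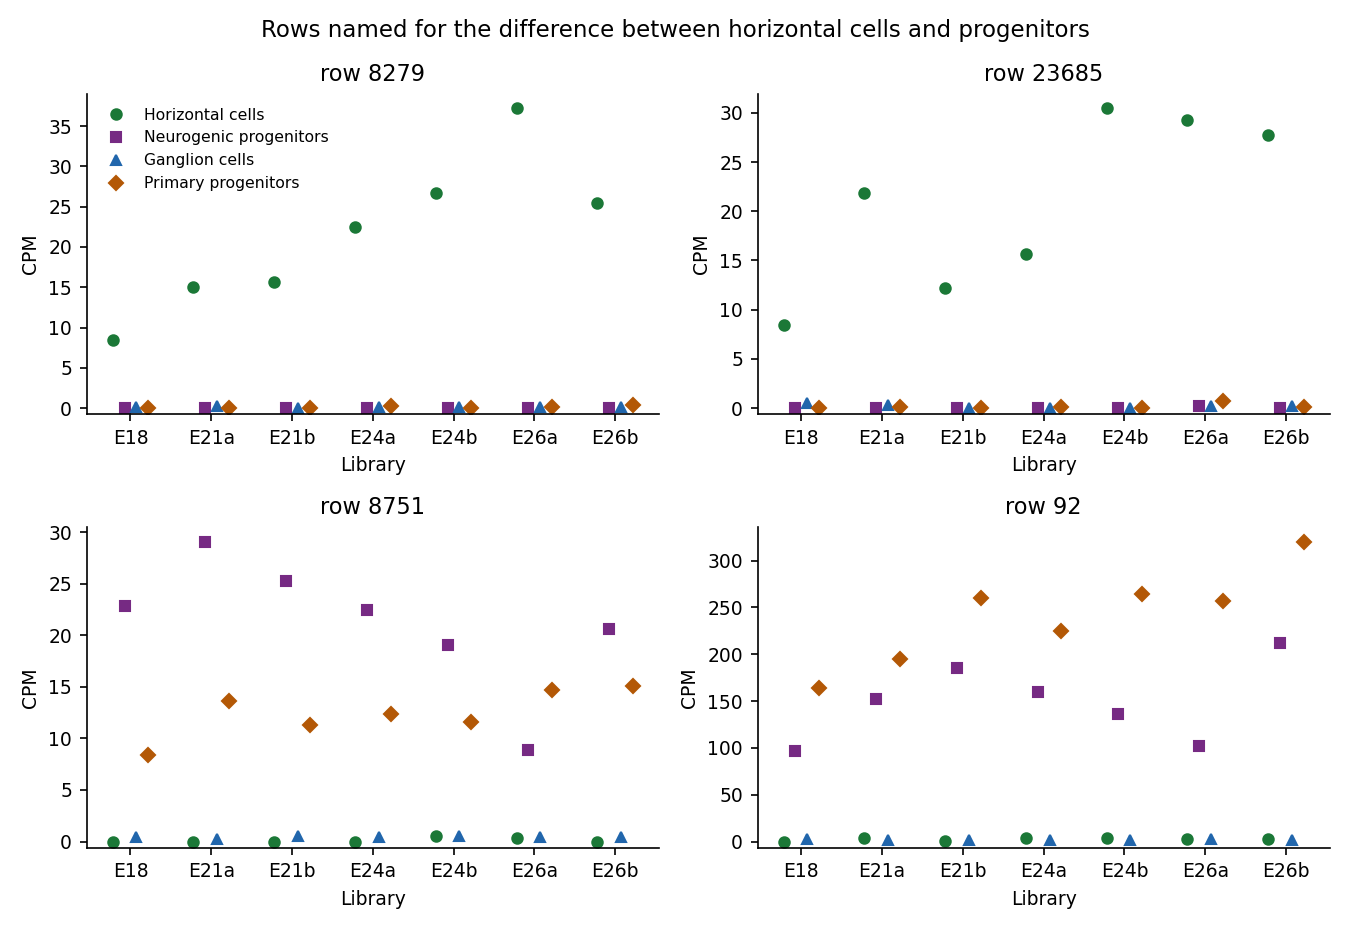
Level in CPM of the 4 rows named for the difference, by library, in horizontal cells, neurogenic progenitors, ganglion cells and primary progenitors. Rows 8279 and 23685 lay above 8 CPM in horizontal cells and below 1 CPM in the other 3 types, and rows 8751 and 92 were present in both progenitor types and near 0 CPM in both neuron types. In E18 the horizontal cell points of rows 8279 and 23685 come from 1 UMI each.

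The called rows separated nearly every single cell. For each cell, the UMIs in rows called at least 2-fold higher without that cell's library were set beside the UMIs in rows called at least 2-fold lower, leaving out the most abundant row. Of the horizontal cells, 2247 of 2303 (97.6%) held more UMIs in the higher rows, from 92.0% of the 25 cells in E18 to 99.2% in E21a. Of the progenitors, 8 of 1762 (0.454%) did so, and 5 of these were in E26a. The median share of UMIs in the higher rows was 7.65% to 9.92% per library in horizontal cells and 1.87% to 2.47% in progenitors. In the lower rows it was 3.36% to 3.88% and 8.47% to 13.9%. These cells carried the annotation that the rows were called from, so the shares describe the sets and are no test of them. With the most abundant row counted among the higher rows, 2302 of 2303 horizontal cells but also 282 of 1762 progenitors (16.0%) held more UMIs in the higher rows.

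**Figure D4:**
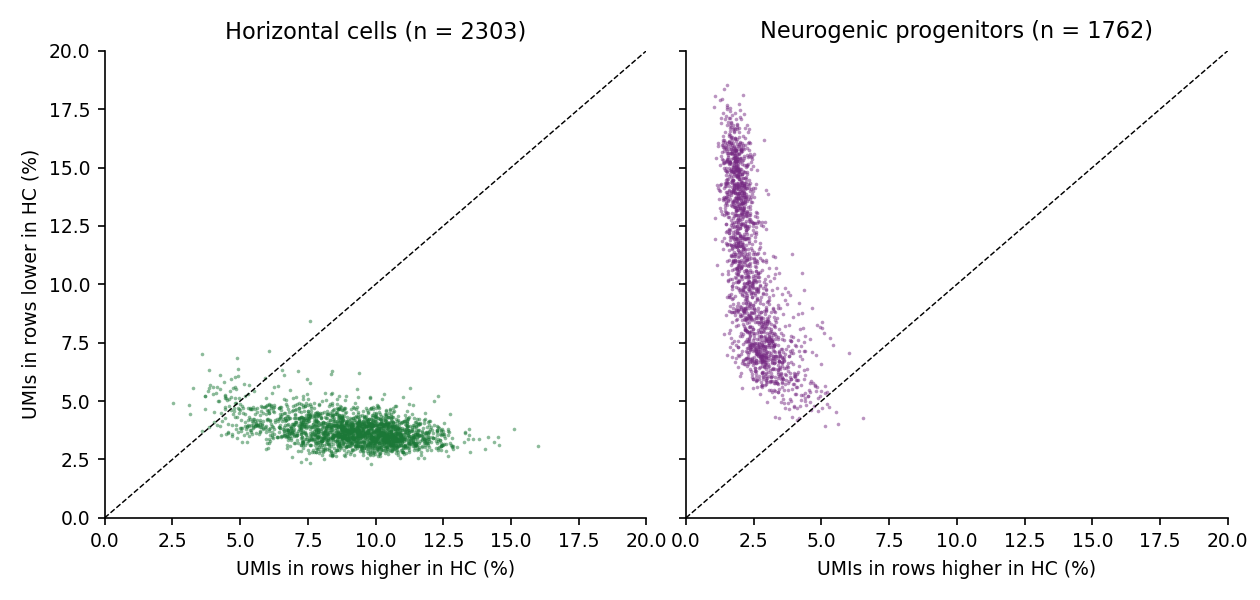
Share of each cell's UMIs in rows called at least 2-fold higher (x axis, %) and at least 2-fold lower (y axis, %) in horizontal cells, called without the cell's own library and leaving out the most abundant row, for 2303 horizontal cells (left) and 1762 neurogenic progenitors (right). The dashed line marks equal shares, with 97.6% of horizontal cells and 0.454% of progenitors to its right, and progenitors spread widely along the y axis.

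Progenitors spread over a wider range of the lower rows than horizontal cells. In E18 the median progenitor held 8.32% of all its UMIs in rows lower in horizontal cells, with 5.94% at the 5th and 15% at the 95th percentile. In E24a the median was 11.9%, from 5.70% to 15.3%. The corresponding range of horizontal cells in E24a ran from 2.55% to 4.14%. Leaving out the most abundant row, ganglion cells, the other early neuron, also held more UMIs in the higher rows than in the lower ones in 4764 of 5700 cells (83.6%), and primary progenitors did so in 0 of 8841 cells, which allows a share of up to 0.0339%. With that row these were 5573 ganglion cells (97.8%) and 130 primary progenitors (1.47%).

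Direct comparisons asked which of these rows set horizontal cells apart from the other neurons of the embryonic retina. They share the horizontal cell sums with the first comparison, so the values are given side by side and are no independent evidence. Against ganglion cells, which send the retina's output to the brain, 7915 of 13556 rows tested (58.4%) were called, 4040 (29.8%) higher and 3875 (28.6%) lower in horizontal cells, and 2647 (19.5%) by at least 2-fold, 991 (7.31%) higher and 1656 (12.2%) lower. The balance of directions turned with DESeq2 (3056 higher and 3898 lower), with its size factors (3518 and 4305) and with thinned sums (2797 and 3324). It also turned without cells over 2 times the median UMIs (3470 and 3913), and it stayed without E21b (3977 and 3827) and without E26a (3530 and 3524). The shares that follow are those of the main fit. Of the 1039 rows above, 1038 were tested here, 472 (45.5%) were higher in horizontal cells than in ganglion cells and 330 (31.8%) were lower, with a median log2 difference of 0.19. Over all 10395 rows tested in both comparisons, 34.5% were higher and 26.3% lower, with a median of 0.10. By at least 2-fold, 273 of the 1038 rows were higher and 153 lower than in ganglion cells, against 758 and 767 of the 10395. Of the rows at least 2-fold below progenitors, 1047 were tested, 336 (32.1%) were higher in horizontal cells than in ganglion cells and 313 (29.9%) were lower.

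Against photoreceptor precursors, with 6 libraries of at least 10 cells of both types, 2976 of 8898 rows (33.4%) were called, 1492 (16.8%) higher and 1484 (16.7%) lower in horizontal cells. By at least 2-fold, 1191 rows (13.4%) were called, 651 (7.32%) higher and 540 (6.07%) lower. Of the rows at least 2-fold above progenitors, 902 were tested, 636 (70.5%) were higher in horizontal cells than in precursors and 38 (4.21%) were lower, with a median log2 difference of 1.01. All 8769 rows tested in both gave 16.6% and 16.1%, with a median of -0.01. The rows lower in horizontal cells than in progenitors were lower than in precursors too in 398 of 636 rows tested (62.6%) and higher in 8.

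Row 31159 and row 32094 led the rows higher than in ganglion cells. Row 31159 held 219 CPM in E18, 346 and 339 CPM in E21a and E21b, 101 and 170 CPM in E24a and E24b, and 114 and 109 CPM in E26a and E26b in horizontal cells, against at most 1.24 CPM in ganglion cells (pooled 250-fold, 95% exact interval 184 to 348, edgeR adjusted p = 5.73e-16). It lay between 0.336 and 22.7 CPM in neurogenic progenitors. Row 32094 held 94.3 to 183 CPM in horizontal cells and at most 1.42 CPM in ganglion cells (pooled 227-fold, 95% exact interval 162 to 330, adjusted p = 7.79e-15). Both were near 0 in primary progenitors, at most 2.42 CPM.

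Row 29871 and row 20105 led the rows lower than in ganglion cells. Ganglion cells held 19.8 to 94.1 CPM of row 29871, and horizontal cells held 0 CPM in 6 libraries and 0.315 CPM, from 1 UMI, in E26a (edgeR adjusted p = 2.22e-15). For row 20105 ganglion cells held 2.33 to 116 CPM and horizontal cells at most 0.630 CPM (adjusted p = 8.89e-15). Both rows had their highest progenitor level in E26a, 1.72 CPM from 7 UMIs for row 29871 and 4.43 CPM from 18 UMIs for row 20105. Without cells over 2 times the median UMIs, the progenitors of E26a held 0 UMIs of either row.

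Row 1821 and row 30138 led the rows higher than in photoreceptor precursors. Horizontal cells held 29.6 to 78.4 CPM of row 1821 over the 6 libraries and precursors had 0 of 3705679 UMIs, at least 66.1-fold lower (edgeR adjusted p = 2.10e-12). Row 30138 held 17.7 to 28.7 CPM in horizontal cells and 0 UMIs in precursors, at least 26.9-fold lower (adjusted p = 5.58e-09). In the other direction, row 25505 held 11.7 to 50.5 CPM in precursors and no UMI in horizontal cells, at least 118-fold lower (adjusted p = 5.42e-12), and row 30961 held 17.6 to 168 CPM in precursors and at most 0.946 CPM in horizontal cells (adjusted p = 9.79e-19). The precursor sums of E21a and E21b came from 18 and 22 cells, and 3 UMIs amount to 29.4 and 17.6 CPM there.

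A change with embryonic day in the difference between the types was called for few rows. Of the 10530 rows, 243 (2.31%) had an interaction of cell type and day at an edgeR adjusted p below 0.05, 100 (0.95%) with a difference that rose with day and 143 (1.36%) with one that fell. Among them, 52 rows that were higher in horizontal cells widened their difference and 75 narrowed or turned it, 41 that were lower widened it and 20 narrowed or turned it, and 55 were not called over all libraries together. The count was 118 with DESeq2, 131 without the library block, 120 without E21a and 115 without E21b. The balance of directions turned without E26a (185 rising and 93 falling), without cells over 2 times the median UMIs (177 rising and 124 falling), and with each cell thinned to 2000 UMIs (51 rising and 45 falling).

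Row 8644 changed sides. Horizontal cells held 0 CPM in E18, 10.9 and 6.97 CPM in E21a and E21b, 38.6 and 33.7 CPM in E24a and E24b, and 51.1 and 46.8 CPM in E26a and E26b, and progenitors of the same libraries held 36.3, 39.7, 54.1, 11.2, 30.7, 13.5 and 20.6 CPM. Horizontal cells were thus below the progenitors in the 3 earlier libraries and above them in the 4 later ones. The difference rose by 0.78 ± 0.096 per day on the log2 scale (edgeR adjusted p = 1.45e-05), with a rise of 0.47 per day in horizontal cells (adjusted p = 0.000152) and -0.18 per day in progenitors (adjusted p = 0.0446).

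Row 10490 did the same. It went from 7.84 to 16.4 CPM in horizontal cells of E18 and E21 to 26.2 to 64.3 CPM at E24 and E26, while progenitors went from 16.8 to 27.9 CPM to 3.30 to 11.7 CPM. The difference rose by 0.75 ± 0.095 per day (edgeR adjusted p = 2.16e-05). Primary progenitors moved with the neurogenic ones, from 25.6 CPM in E18 to 3.23 CPM in E26b.

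Row 4885 and row 3840 had the steepest falls of the difference, and the progenitor counts of both were low. Row 4885 held 25.3 CPM in E18, 34.2 and 19.2 CPM in E21a and E21b, 5.74 and 18.2 CPM in E24a and E24b, and 5.67 and 6.47 CPM in E26a and E26b in horizontal cells, and progenitors held 0 CPM until E24 and 1.48 and 0.826 CPM at E26 (slope -1.37 ± 0.28 per day, edgeR adjusted p = 0.0076). In horizontal cells alone the slope of row 4885 was -0.32 ± 0.077 per day (edgeR adjusted p = 0.0167). Its progenitor values came from 6 UMIs in E26a and 1 UMI in E26b. Without cells over 2 times the median UMIs, progenitors of E26a held 1 UMI of it, 0.629 CPM. Row 3840 rose in horizontal cells, from 16.9 CPM in E18 to 146 CPM in E26a (0.22 per day, adjusted p = 0.0157). Progenitors of E26a held 7.38 CPM of it, against at most 0.614 CPM in the other libraries, and the difference fell with day (slope -1.05 ± 0.24, edgeR adjusted p = 0.016). Without E26a the slope was -0.07 (adjusted p = 0.896), and without cells over 2 times the median UMIs it was -0.57 (adjusted p = 0.252).

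**Figure D5:**
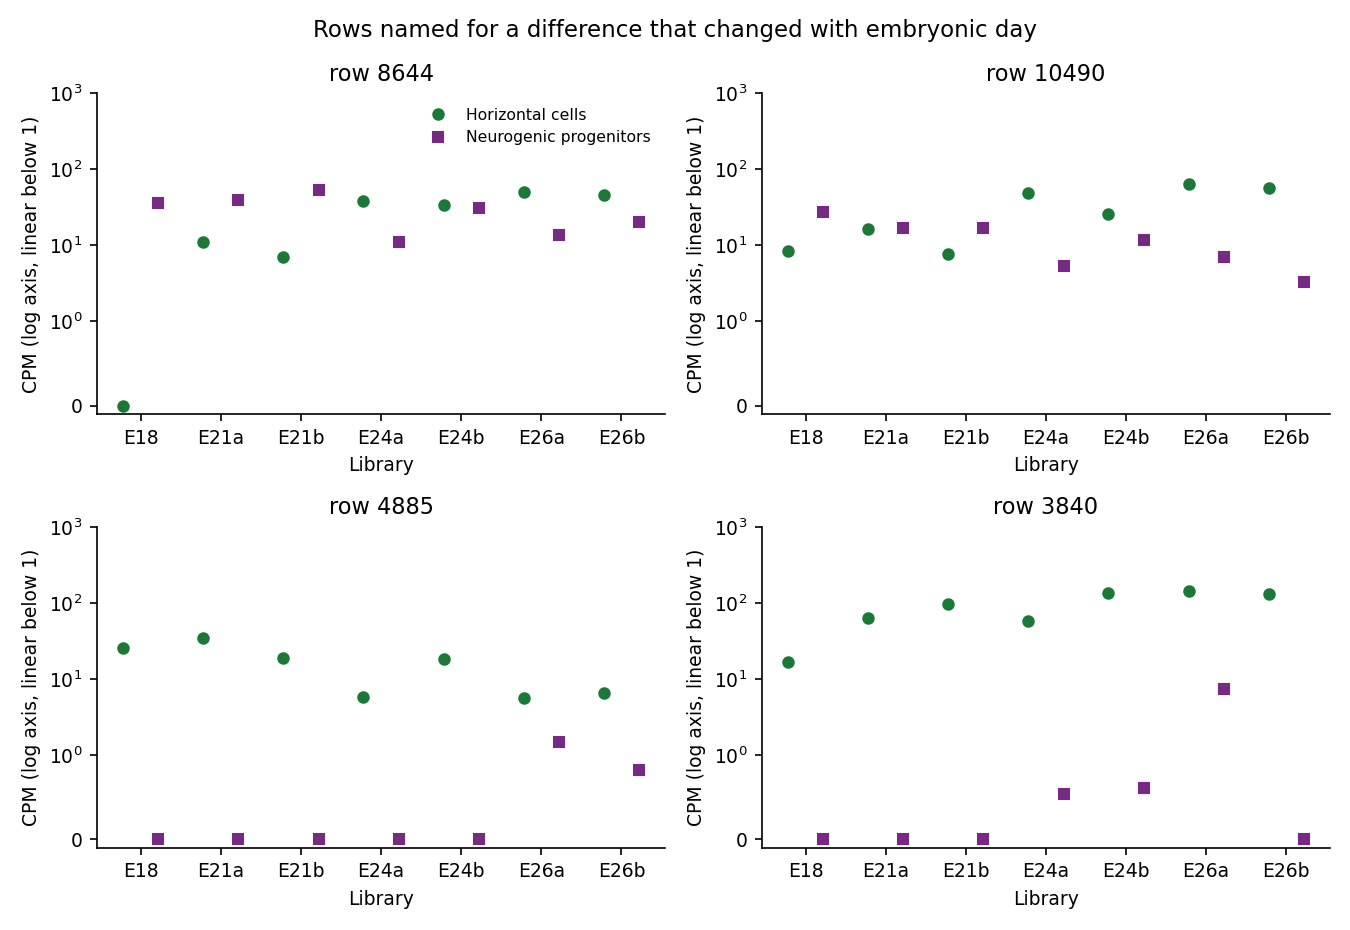
Level in CPM (log axis, linear below 1) of the 4 rows named for a difference that changed with embryonic day, by library, in horizontal cells (circles) and neurogenic progenitors (squares). Horizontal cells crossed from below to above the progenitors between E21 and E24 in rows 8644 and 10490, though row 10490 was nearly level in E21a. The progenitor points of rows 4885 and 3840 left 0 only in the later libraries.

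Within each type, fewer rows were called for a slope over embryonic day than for the difference between the types. The slope fits used the sums of a single type and no library block, so the fits may differ in what they can detect. In horizontal cells 583 of 11690 rows (4.99%) were called for a slope over day, 371 (3.17%) rising and 212 (1.81%) falling, and in progenitors 848 of 11248 (7.54%), 541 (4.81%) rising and 307 (2.73%) falling. Rows that were at least 2-fold higher in horizontal cells rose with day in those cells in 118 of 1039 cases (11.4%) and fell in 64 (6.16%), against 3.04% and 1.66% of all 10243 rows tested in both fits. Rows that were at least 2-fold lower rose with day in progenitors in 141 of 1173 cases (12%) and fell in 45 (3.84%), against 4.50% and 2.70% of 10263 rows. The slopes were fitted on the same sums that chose the sets. The count in horizontal cells was 348 without E21a, 314 without E21b and 335 without E26a, and that in progenitors was 286 without E18, 534 without E26a and 482 without cells over 2 times the median UMIs.

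The steepest slopes were in large part those of whole libraries. Row 25145 was named in both types, with a slope of 1.16 ± 0.25 per day in horizontal cells (edgeR adjusted p = 0.0067) and 0.79 ± 0.18 in progenitors (adjusted p = 0.0122). It stood at 377 CPM in horizontal cells and 477 CPM in progenitors of E26a, and at 6.10 to 25.3 CPM in horizontal cells and 5.59 to 12.9 CPM in progenitors of the other 6 libraries. Ganglion cells and primary progenitors of E26a held 367 and 284 CPM. Without E26a the slope was 0.05 in horizontal cells (adjusted p = 0.910) and 0.06 in progenitors (adjusted p = 0.681).

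Row 3366, with a slope of -1.04 ± 0.25 per day in horizontal cells (edgeR adjusted p = 0.0155), was such a row of E21a, at 1310 CPM there and at most 9.91 CPM in horizontal cells of the other libraries. Ganglion cells of E21a held 768 CPM of it. Without E21a the slope was -0.03 (adjusted p = 0.951). Row 5492 fell with day in progenitors (-0.75 ± 0.093, adjusted p = 0.00022), with 516 CPM in E18 and 278 CPM in E21a and 8.61 to 25.8 CPM elsewhere. Horizontal cells held 421 and 211 CPM in the same 2 libraries and 7.31 to 21.8 CPM elsewhere. Row 17803 was high in E24a and E26b, with 42.3 and 206 CPM in horizontal cells against 0 to 6.10 CPM in the other 5 libraries (slope 0.94 ± 0.25, edgeR adjusted p = 0.0285). Without cells over 2 times the median UMIs, E26b held 80.1 CPM of it.

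The slopes of rows 8169, 25839 and 666 stayed called with any 1 library left out. Row 8169 fell with day in horizontal cells, from 33.7 CPM in E18 and 16.4 and 35.7 CPM at E21 to 0 to 5.87 CPM at E24 and E26 (-0.79 ± 0.12 per day, edgeR adjusted p = 0.000407), while progenitors held 1.01 to 5.66 CPM. Row 25839 fell in progenitors, from 267 CPM in E18 through 59.2 and 57.7 CPM at E21 and 19.2 and 12.3 CPM at E24 to 11.8 and 9.90 CPM at E26 (-0.57 ± 0.039 per day, adjusted p = 1.6e-06), and in horizontal cells from 16.9 CPM to 2.28 CPM in E26b (-0.39 per day, adjusted p = 0.0106). Row 666 had a higher mean at E24 and E26 than before in each of the 5 types looked at. It rose in progenitors (0.76 ± 0.13 per day, edgeR adjusted p = 0.00249) and in horizontal cells (0.31 ± 0.074 per day, adjusted p = 0.0155). Its mean went from E18 and E21 to E24 and E26 from 17.6 to 76.9 CPM in precursors and from 1026 to 1914 CPM in ganglion cells, and primary progenitors went from at most 16.8 CPM to 24.7 to 68.1 CPM. Libraries of a time point differed, with 105 and 58.7 CPM in horizontal cells and 109 and 31.9 CPM in progenitors of E24a and E24b. Progenitors held 523 CPM in E26a, of which the progenitor of 295040 UMIs gave 621 of 2127 UMIs. Without cells over 2 times the median UMIs, E26a held 78.0 CPM of it and the slope was 0.40 (adjusted p = 0.00255), and without E26a it was 0.43 (adjusted p = 0.0439). The row was most abundant in ganglion cells, at 875 to 2247 CPM. The part that such cells of E26a have in other results was not tested row by row.

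The postnatal library of P4 (postnatal day 4), which entered no fit, held 124 horizontal cells and 50 cells annotated as early neurogenic progenitors. Of the rows called at least 2-fold higher over the embryonic libraries, 354 of the 417 with at least 10 UMIs (84.9%) were higher at P4, and of those called lower 208 of 286 (72.7%) were lower, against 54.1% and 45.9% of all rows. Row 8279 stood at 66.7 CPM in horizontal cells at P4 and row 3840 at 296 CPM, both above every embryonic library, and row 23685, from 1 UMI, at 4.77 CPM, below every embryonic library. Rows 31159 and 32094, which were high in embryonic horizontal cells, had no UMI in horizontal cells of P4, and cells annotated as neurogenic progenitors held 292 and 79.5 CPM there. Rows 8751 and 92, high in embryonic progenitors, had no UMI in the P4 progenitors, and row 92 stood at 19.1 CPM in P4 horizontal cells, from 4 UMIs. There, 3 UMIs amount to 14.3 CPM in the horizontal cell sum and 39.8 CPM in the progenitor sum, and with 1 library these values have no replicate check.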

How the data were processed

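Retinas were measured with 10x Chromium 3′ v3.1 single-cell RNA libraries. Per the study's methods, the authors aligned reads with Cell Ranger 3.1.0 to the HiC_Itri_2 assembly, aggregated the libraries, clustered cells in Seurat 4.0.4 and named types from marker genes. The deposited values are UMI counts per gene row and cell, whole numbers that are not normalized. The sources used here do not give the filters on cells, doublet removal or any equalising of depth, and no doublet caller was run.

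A library was a time point plus the suffix of the cell name. Counts were summed per library and type where at least 10 cells of both types were present, and fitted with edgeR 4.0.16 in R 4.3.3 (filterByExpr, TMM scaling, quasi-likelihood test, library as block, Benjamini-Hochberg adjustment over all rows tested, call at an adjusted p below 0.05). A log2 change carries the SE that its F statistic gives. Slopes over embryonic day were fitted for each type, and the interaction of type and day with the library as block. CPM values in the text carry no TMM scaling. Per-cell measures were compared by exact sign-flip permutation over libraries (Python 3.11.15, scipy 1.17.1), and 3 relations with day by exact permutation. A held-out check asked whether the annotation follows the order of the matrix columns. It put 92.4% of 3000 cells nearest to the mean profile of their annotated type, against 15.4% after types were shuffled. The types came from clusters of the same cells, so the check does not test the types. Libraries of a time point differed beyond sampling noise, with a chi-square per degree of freedom of 2.58 to 8.41. Intervals and floors of 3 counts cover counting error only.

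For each test across rows, the 2 rows with the largest change in each direction were named among called rows. Comparisons of types asked for a mean of at least 20 CPM in the higher type, 1 sign in all libraries and ranges that did not overlap, and slopes over day for a mean of at least 20 CPM at the higher end, over E18 and E21 or over E24 and E26. Without a pairing of names and rows no marker list or sequence is reported here. The cells, rules and lists were chosen with earlier results of these data known, and the most abundant row and alternatives without it were added after seeing the data. The fits were tested on simulated data. Alternatives were DESeq2 1.42.0, other scalings and filters, thinned sums, equal cell numbers and leaving out libraries or cells of high UMI count.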

Additional observations from a re-analysis of the deposited data

Results flagged for a closer look

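In 4 of 25 sets of library values a single library stood apart from the others. Chance alone gives about 1 in 20, but that rate does not hold for sets with 0 in all libraries but 1. In E24a the log2 ratio of detected genes per cell, horizontal cells over neurogenic progenitors, was -0.39, against -0.29 to -0.26 in the other 6 libraries. In E18 the log2 ratio of cell numbers was -4.28, against -0.54 to 1.92 in the others. Row 23685 had 0.246 CPM in the progenitors of E26a and 0 CPM in those of the other 6 libraries, and row 29871 had 0.315 CPM in the horizontal cells of E26a and 0 CPM in the others, each from 1 UMI, so that these 2 sets stand apart by construction.

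The difference between the types changed with embryonic day for 243 rows by the test of the interaction itself.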

How the results depend on the processing

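Over the alternatives, 103 of the 126 values of the comparisons stayed on their side of the threshold or within 1.5 times the main count, and all named rows kept their direction, with 284 values past the threshold and 22 no longer past it. The count of 6107 rows between horizontal cells and progenitors was 5455 with DESeq2, 7667 without a filter, 5525 without cells over 2 times the median UMIs, 5525 to 6287 with 1 library left out and 2780 of 5405 rows with each cell thinned to 2000 UMIs, where fewer rows were tested. The rows named for that comparison stayed called under every alternative that tested them, with an adjusted p of at most 2.43e-07. For the change of the difference with day, 243 rows became 118 with DESeq2, 96 of 5405 with each cell thinned, and 115 to 315 with 1 library left out. The rows named for that change stayed called in 47 values and lost the call in 9, with an adjusted p of up to 0.994. Slopes gave 314 to 647 rows in horizontal cells and 286 to 780 in progenitors with 1 library left out, and 482 in progenitors without cells over 2 times the median UMIs. The cause of these changes was not tested.

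The library served as the block. With no replicate block, 5280 rows were called between the types, and 131 for the change with day, where the adjusted p of row 3840 was 0.0708. The replicate numbers of the labels were not used as pairs, since both types came from the same library.

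Without the most abundant row, the difference in detected genes at 2000 UMIs was 48.1 and that in the share of the 50 most abundant rows was -1.15 points, both reversed. With all rows, the difference in detected genes of -23.9 was -20.5 as a mean over cells (exact permutation p = 0.0625), -26.7 at 3000 UMIs (exact permutation p = 0.0625) and -30.4 to -19.2 with 1 library left out, where leaving out any library but E18 gave an exact permutation p of 0.0625 or 0.0938. As a mean per time point the rho of the cell ratio with day was 1, with an exact permutation p of 0.0833, the smallest that 4 time points allow. The 25 horizontal cells of E18 limit what is seen there to levels of about 25.3 CPM for 3 UMIs.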

Other observations

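In the single P4 library the most abundant row took 9.08% of UMIs in horizontal cells and 7.58% in cells annotated as neurogenic progenitors, whereas the gap between the types was 3.47 to 7.55 percentage points in the embryonic libraries. The log2 ratio of median UMIs per cell between the types had no detected relation with embryonic day (rho 0.22, exact permutation p = 0.641, adjusted p = 0.641, r 0.34, exact permutation p = 0.454, adjusted p = 0.454, n = 7).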
